A study of Mus musculus with 9 samples.

Results

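*Tspan6* and 9 other tetraspanin genes expressed in epithelia (*Tspan1*, *Tspan8*, *Tspan13*, *Tspan15*, *Cd9*, *Cd63*, *Cd81*, *Cd82* and *Cd151*) were followed across the adult male submandibular gland (SMG), a major salivary gland of acini, ducts and myoepithelial cells (MECs). The genes were picked by symbol after their values in these same libraries were known, with *Tspan6* to be set against the others. Their difference between genotypes is therefore given as a description with no test. All 10 had rows among the 48733 of the count table, and all 10 were among the 13842 genes with enough reads to be tested.

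RNA was sequenced from 4 wildtype (WT) and 5 *Hs3st3a1;3b1* double knockout (DKO) SMGs, each from a male mouse, with 1 library per gland. *Hs3st3a1* and *Hs3st3b1* encode 3-O-sulfotransferases, enzymes that add a late sulfate group to heparan sulfate (HS) chains. DKO mice carried the *Hs3st3b1* knockout allele together with frameshift deletions cut by zinc finger nucleases in exon 1 of *Hs3st3a1* and were on a C57BL/6 background. Both alleles are constitutive and not limited to a cell type. The mice were adults of unstated age, several founder lines were kept by the study, and the labels do not say which line each DKO gland came from.

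Tetraspanins are small proteins that cross the membrane several times and gather integrins, immunoglobulin-family proteins, proteases and other tetraspanins into membrane patches. Some, such as CD63, CD9 and CD81, are enriched on endosomal membranes or on the small vesicles cells release, and others set how laminin-binding integrins or the protease ADAM10 behave at the cell surface. In secretory epithelia they lie on apical, basolateral and endosomal membranes. TSPAN6 itself has been tied to endosomal sorting, to the release of small vesicles and to restraint of innate antiviral signalling.

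The deleted genes were checked first. *Hs3st3a1* had 3 to 14 reads in the WT libraries and 0 in each DKO library, and *Hs3st3b1* had 67 to 216 reads in WT and 7 to 45 in DKO. Libraries held 17053747 to 37870519 counts, so that 1 CPM (a read count scaled to the TMM-adjusted size of its library) stood for 13.8 to 45.3 reads. Markers of the gland's own cells were present throughout. The 5 acinar markers all had higher fitted levels in DKO (summed 17496 to 33608 CPM in WT and 33842 to 65816 in DKO, 0 called by edgeR, 1 by DESeq2), 4 of 5 duct markers had lower ones (12909 to 15879 and 11920 to 12990 CPM, 0 and 5 called), and all 6 MEC markers had lower ones (601 to 955 and 235 to 545 CPM, 2 and 5 called). Other cell types had lower summed markers than acini and ducts, with fibroblasts (241 to 396 CPM in WT, 122 to 296 in DKO), leukocytes (71.4 to 112 and 47.8 to 109), endothelium (15.8 to 21.6 and 20.8 to 27.7) and skeletal muscle (3.20 to 7.86 and 2.66 to 4.76) among them. Library DKO_1 stood apart in *Bpifa2*, a secretory gene of the parotid and sublingual glands. It had 7408 CPM against 43.1 to 79.0 in the other DKO libraries and 4.42 to 26.5 in WT. Of the other marker genes of those glands, *Amy1* (636 CPM against 7.12 to 14.1 in the other DKO libraries) was also highest in DKO_1. So were *Dcpp1* (98.6 against 0.276 to 20.2) and *Prpmp5* (0.613 CPM). *Dcpp2*, *Dcpp3* and *Muc19* were instead highest in DKO_4, at 44.8, 64.2 and 6.12 CPM. The source of these values was not tested.

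*Tspan6* (ENSMUSG00000067377) lies on the minus strand of the X chromosome, at chrX:133891068-133898429 in GRCm38, with 4 annotated transcripts and 2060 merged exon bases. No annotated gene overlapped it. The bases just upstream of its start, at chrX:133898430-133898679 (GRCm38.p6, minus strand, sequence from RefSeq), are shown because this is the gene with the largest difference of the family. Capitals mark its longest unbroken run of A and G.

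Tspan6 upstream: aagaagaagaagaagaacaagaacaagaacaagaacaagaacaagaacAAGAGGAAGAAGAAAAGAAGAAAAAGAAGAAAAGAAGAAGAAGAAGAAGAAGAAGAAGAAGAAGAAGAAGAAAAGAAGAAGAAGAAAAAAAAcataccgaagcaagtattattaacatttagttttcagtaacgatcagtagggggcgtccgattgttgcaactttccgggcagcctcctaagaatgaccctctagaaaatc

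The run is 92 bases long and extends from 202 to 111 bases before the start. Among the 32851 promoters of the table, of 27025 genes, 10 (0.0304%) hold a run of A and G at least as long in the same window, and the median longest run is 9 bases. The window is 36.0% G and C, against a median of 52.4%. Neither CCAAT, the GC box GGGCGG nor TATAAA, each searched on both strands, is in it. All 10 genes matched a RefSeq promoter, 14 windows in all. CCAAT was in 3 of the 14 (33.8% of all promoters), GGGCGG in 7 (32.7%) and TATAAA in 0 (12.4%). *Tspan13*, the member with the next largest fitted increase, is shown for contrast (chr12:36042479-36042728, GRCm38.p6, minus strand). Its capitals mark CCAAT and GGGCGG, each found on the strand printed, and its longest run of A and G is 5 bases.

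Tspan13 upstream: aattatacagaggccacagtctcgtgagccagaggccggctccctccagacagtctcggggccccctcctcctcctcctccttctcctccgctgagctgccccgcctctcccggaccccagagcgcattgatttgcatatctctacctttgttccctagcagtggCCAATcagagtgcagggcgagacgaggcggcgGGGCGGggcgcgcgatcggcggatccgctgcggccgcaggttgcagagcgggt

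*Tspan6* was higher in every DKO library than in any WT library. The WT libraries held 211, 269, 328 and 210 *Tspan6* reads, and the DKO libraries held 755, 774, 957, 636 and 558. In the deposited normalized values it stood at 9.43, 10.2, 7.27 and 9.02 CPM in WT_1 to WT_4 and at 22.1, 31.8, 44.0, 25.1 and 40.3 CPM in DKO_1 to DKO_5. The groups were far from overlapping: the lowest DKO library, DKO_1, lay above the highest WT library, WT_2. The WT mean was 8.99 ± 1.26 CPM (SD, n = 4) and the DKO mean 32.6 ± 9.44 CPM (SD, n = 5), a ratio of means of 3.63, and the fitted log2 fold change was 1.86 ± 0.21 (SE).

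Within DKO, *Tspan6* was highest in DKO_3 and DKO_5 and lowest in DKO_1 and DKO_4. DKO_3 and DKO_5 were also the libraries with the lowest composition (TMM) factors, at 0.774 and 0.809 against 0.912 to 1.11 in the other DKO libraries and 1.09 to 1.20 in WT. They held the most of the acinar product *Pip*, at 63543 and 59957 CPM. DKO_3 held the least of the granular duct product *Egf*, at 378 CPM. When reads were divided by total counts alone, *Tspan6* ranged from 8.66 to 11.6 CPM in WT and from 21.8 to 33.9 CPM in DKO, and the groups still did not overlap. Under that scaling the fitted log2 fold change was 1.53, while the median over all genes moved from 0.01 to -0.28. Leaving out any single library gave 1.73 to 1.97, and 1.97 was the value without DKO_1. In whole-gland RNA, a change in the number of cells of a type and a change in RNA per cell cannot be told apart.

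**Figure D1:**
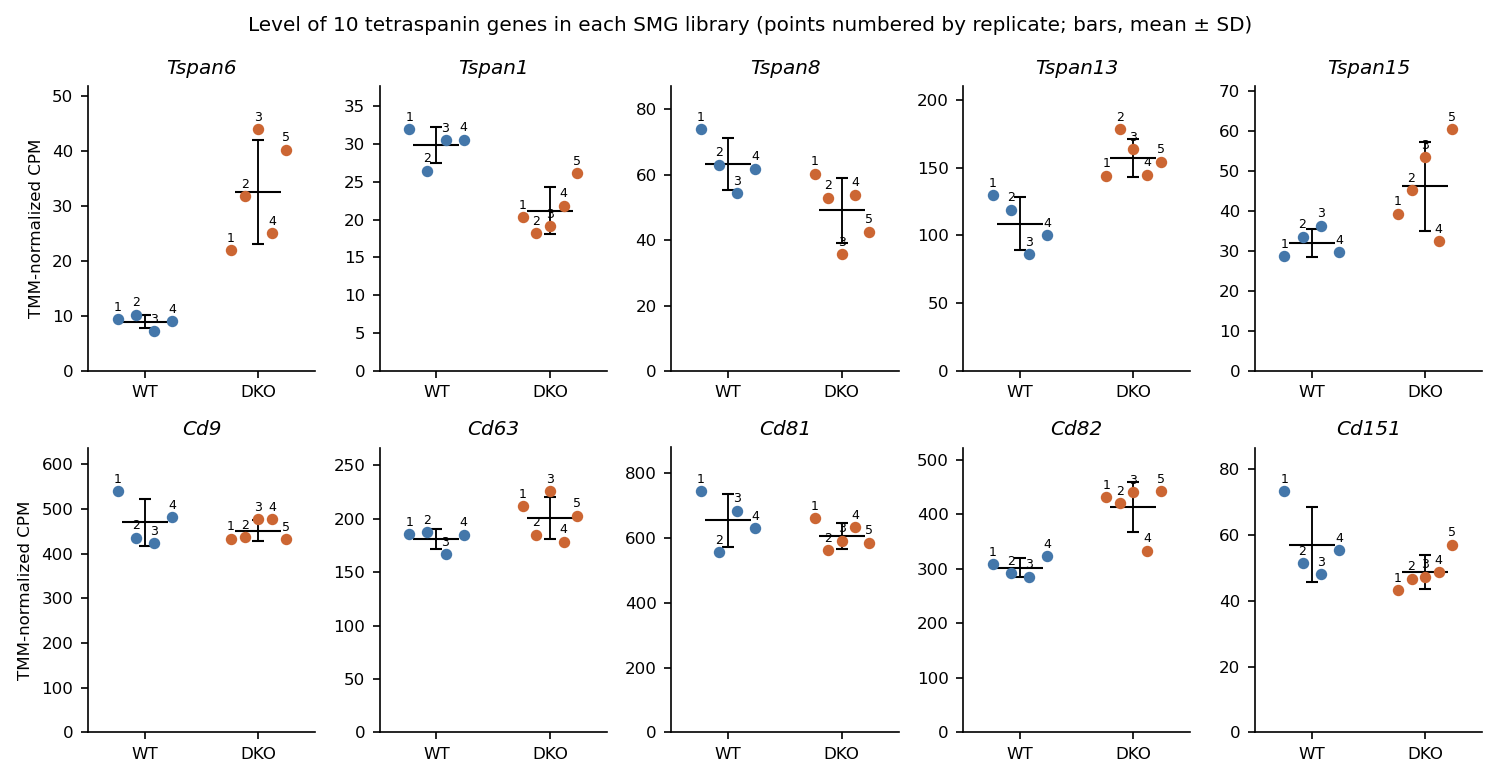
TMM-normalized CPM (y axis, linear, from 0) of the 10 tetraspanin genes in each WT (blue, n = 4) and DKO (orange, n = 5) SMG library, numbered by replicate, with the mean and SD of each group in black. *Tspan6* rises from 7.27 to 10.2 CPM in WT to 22.1 to 44.0 in DKO, *Tspan1* is lower in all 5 DKO libraries, *Tspan13* and *Cd82* are higher in all 5, and the other 6 genes overlap between groups.

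None of the other 9 genes moved on the scale of *Tspan6*. Their fitted log2 fold changes lay between -0.50 and 0.53, and the median over all 10 was 0.05 against 0.01 over all genes tested. Fitted levels were higher in DKO for 5 of the 10 and lower for 5. Over all omissions of 1 library the log2 fold changes of the other 9 genes lay between -0.58 and 0.63. The groups did not overlap for 3 genes higher in DKO (2.45% of all genes) and for 1 gene lower (3.5%). The choice of the genes used this contrast, so nothing is read from these counts.

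Of the members found mainly in epithelial cells, *Tspan1* was the one that was lower without overlap. It encodes a tetraspanin of luminal epithelial membranes. Its levels were 31.9, 26.4, 30.5 and 30.6 CPM in WT and 20.3, 18.2, 19.1, 21.9 and 26.1 CPM in DKO. The highest DKO library, DKO_5, came just under the lowest WT library, WT_2, and the fitted log2 fold change was -0.50 ± 0.12 (SE). *Tspan1* and *Tspan6* thus stood on opposite sides of the WT level in DKO.

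*Tspan8*, a tetraspanin of gut and carcinoma epithelia, had its 4 lowest values in DKO. It stood at 73.8, 63.1, 54.5 and 61.8 CPM in WT and at 60.4, 53.0, 35.7, 53.9 and 42.6 CPM in DKO. The groups overlapped, with 4 of 5 DKO libraries below every WT library, and the fitted log2 fold change was -0.36 ± 0.15 (SE). The lowest *Tspan8* was in DKO_3, the library with the highest *Tspan6*.

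*Tspan13* was higher without overlap, at 129.7, 119.0, 86.0 and 100.2 CPM in WT and 144.1, 178.2, 163.8, 144.9 and 154.4 CPM in DKO. Its fitted log2 fold change was 0.53 ± 0.13 (SE). *Tspan15*, whose product escorts the protease ADAM10 to the cell surface, was at 28.8, 33.6, 36.4 and 29.7 CPM in WT and at 39.3, 45.3, 53.5, 32.4 and 60.4 CPM in DKO. Here 4 of 5 DKO libraries exceeded every WT library, DKO_4 fell inside the WT range, and the fitted log2 fold change was 0.52 ± 0.17 (SE).

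*Cd82*, which encodes a suppressor of cell motility and metastasis, was the remaining gene without overlap. It was at 308.8, 292.1, 285.5 and 324.0 CPM in WT and at 432.2, 420.5, 440.8, 333.4 and 443.1 CPM in DKO. DKO_4 lay near the WT range and the other 4 lay close together above it. The fitted log2 fold change was 0.45 ± 0.12 (SE). *Cd151* encodes the partner of laminin-binding integrins at the basement membrane. It ranged from 48.0 to 73.3 CPM in WT and from 43.2 to 57.0 in DKO, with a log2 fold change of -0.23 ± 0.13 (SE).

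The 3 tetraspanins best known from endosomes and released vesicles overlapped between the groups. *Cd63*, a marker of late endosomes and lysosomes, ranged from 167 to 187 CPM in WT and from 178 to 226 in DKO, with a log2 fold change of 0.15 ± 0.10 (SE). *Cd9*, which acts in membrane fusion and adhesion, ranged from 423 to 540 CPM in WT and from 432 to 477 in DKO (log2 fold change -0.06 ± 0.11, SE). *Cd81*, which encodes a tetraspanin of most cell types, ranged from 556 to 745 CPM in WT and from 563 to 662 in DKO (log2 fold change -0.11 ± 0.12, SE). Under division by total counts alone the sign for *Cd63* turned to -0.15, and without WT_1 the sign for *Cd9* turned to 0.01. The directions of the other 8 genes held under every alternative setting run.

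The libraries were not stranded, so reads of a gene and of one overlapping it on the other strand cannot be told apart. *Tspan8*, *Cd9*, *Cd81*, *Cd82* and *Cd151* each overlap a noncoding transcript on the opposite strand. Of those with a row, the one beside *Cd151* had up to 183 reads in a library, and the others had at most 29.

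Scaled to exon length, the 10 genes covered a wide range, and *Tspan6* sat near the bottom in WT. The WT means in CPM per kb of exon were 229.9 for *Cd9*, 227.3 for *Cd81*, 100.7 for *Cd82*, 49.2 for *Cd63*, 43.9 for *Tspan13*, 37.2 for *Tspan8*, 20.8 for *Cd151*, 12.8 for *Tspan1*, 4.36 for *Tspan6* and 3.92 for *Tspan15*. Neighbours in this order whose libraries overlapped were *Cd9* and *Cd81*, *Cd63* and *Tspan13*, *Tspan13* and *Tspan8*, and *Tspan6* and *Tspan15*.

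In DKO, *Tspan6* reached 15.8 ± 4.58 CPM per kb (SD, n = 5) and took rank 8. It passed *Tspan1*, which was at 9.07 ± 1.34, although their libraries overlapped, and its range of 10.7 to 21.4 also overlapped that of *Cd151* (15.8 to 20.8). *Tspan13*, at 63.5 ± 5.77, stood above *Cd63*, at 54.5 ± 5.26, again with overlap. *Cd9*, *Cd81* and *Cd82* kept ranks 1 to 3. In WT, 69.9% of the 13815 tested genes with an exon length had a lower length-scaled level than *Tspan6*, against 99.5% for *Cd9* and *Cd81*.

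**Figure D2:**
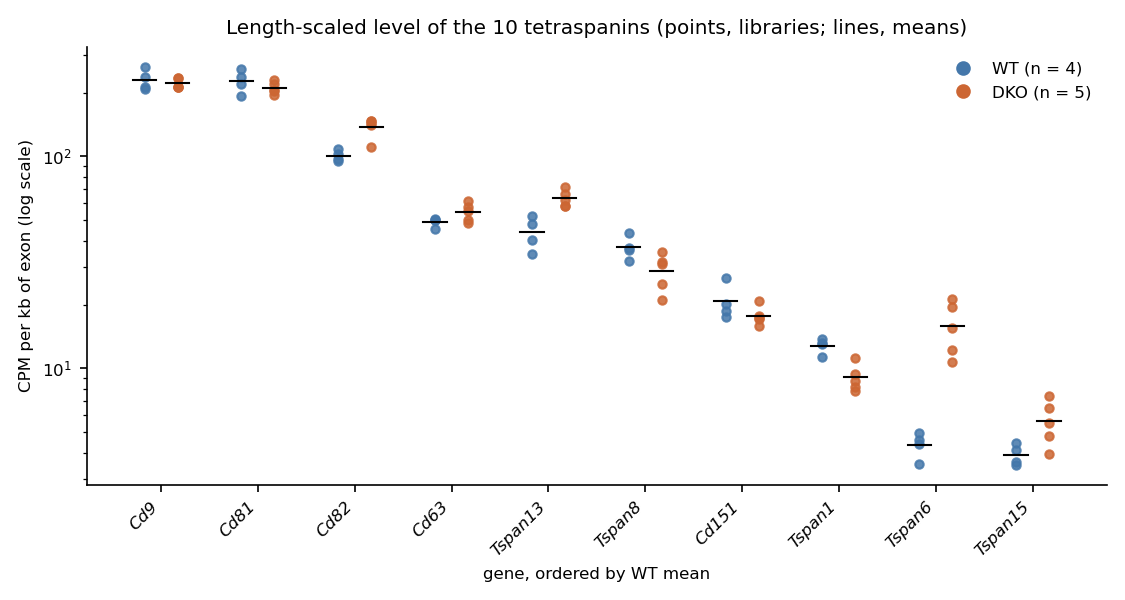
Level in CPM per kb of exon (y axis, log scale) of the 10 genes, ordered by their WT mean, in WT (blue, n = 4) and DKO (orange, n = 5) libraries, with lines at the group means. *Tspan6* moves from 4.36 in WT, beside *Tspan15*, to 15.8 in DKO, between *Cd151* and *Tspan1*.

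A ratio of reads within a library does not depend on how libraries are scaled. Per 100 *Tspan1* reads there were 23.8 to 38.8 *Tspan6* reads in WT and 108 to 230.0 in DKO, so *Tspan6* went from the rarer to the more abundant of the pair. Per 100 *Cd9* reads there were 1.72 to 2.35 in WT and 5.09 to 9.32 in DKO. Per 100 *Tspan13* reads, the denominator that itself was higher in DKO, the means were 8.33 ± 0.745 in WT and 20.7 ± 5.38 in DKO (SD). For all 9 denominators the groups did not overlap. The ratio of the group means lay between 2.48, for *Tspan13* and *Tspan15*, and 5.14, for *Tspan1*. All these ratios have *Tspan6*, picked with this contrast known, as numerator, so nothing is read from their separation.

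The same was done against the 5 acinar markers, since their fitted levels were also higher in DKO. Per 100 reads of the water channel gene *Aqp5* there were 2.48 to 5.02 *Tspan6* reads in WT and 7.09 to 10.5 in DKO. Per 100 reads of *Bhlha15*, a transcription factor of secretory cells, there were 3.21 to 7.42 and 9.80 to 14.8. The groups did not overlap for any of the 5, with ratios of means from 1.72 (*Pip*) to 2.86 (*Cldn10*). The numerator is again *Tspan6*, picked with this contrast known, so nothing is read from this separation either. The part that cell makeup has in the *Tspan6* difference was not tested.

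**Figure D3:**
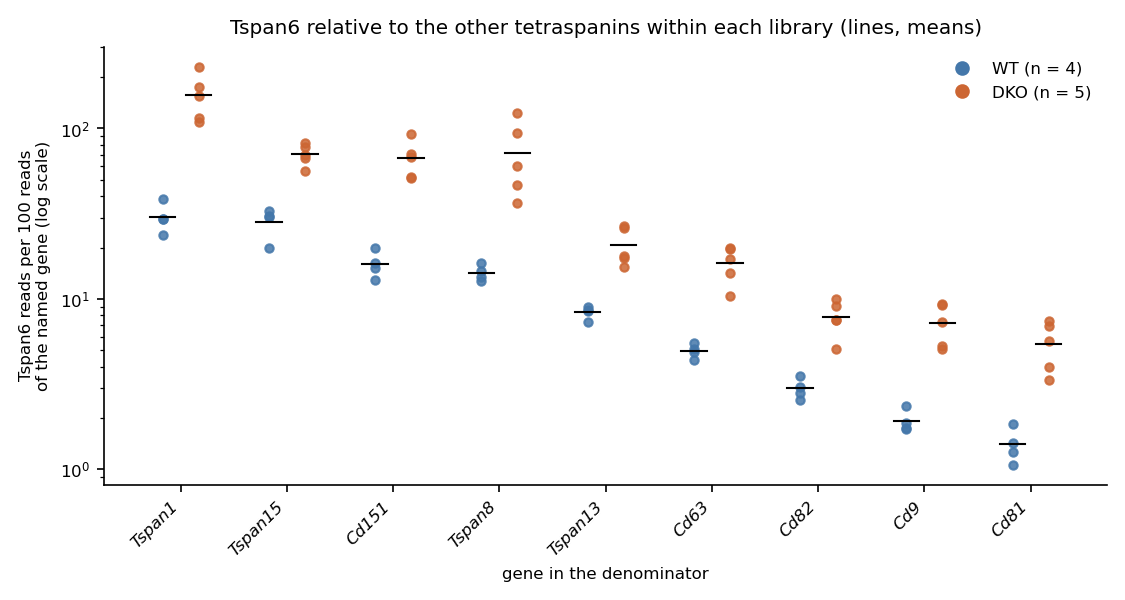
*Tspan6* reads per 100 reads of each of the other 9 genes (y axis, log scale) within each WT (blue, n = 4) and DKO (orange, n = 5) library, with lines at the group means. In each column all DKO libraries lie above all WT libraries, for *Tspan1* at 108 to 230.0 against 23.8 to 38.8.

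*Tspan6* made up a small but larger share of the family in DKO. Of the length-scaled sum over the 27 tested tetraspanins the 4 WT glands gave it 0.310% ± 0.0616 (SD) and the 5 DKO glands 1.17% ± 0.338 (SD), with no overlap. That sum was 1424 ± 184 CPM per kb in WT and 1357 ± 49.3 in DKO, and the libraries overlapped. The 10 genes together held 48.6 to 53.7% of it in WT and 52.9 to 60.5% in DKO. The largest single share belonged to *Tspan12*, known as a co-receptor for Frizzled signalling in blood vessels and not one of the 10, at 43.2% ± 2.85 in WT and 38.1% ± 3.44 in DKO.

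The rest of the family was tested. Its genes are those left after the described genes had been picked with their values known. Earlier results of these data were known when the lists were chosen, so the make-up of the rest is not independent of this contrast. Its p-values and counts are given with that limit. Of 21 with a row, 17 had enough reads. By edgeR's quasi-likelihood test 1 of the 17 had a Benjamini-Hochberg adjusted p under 0.05, lower in DKO (background 0.462%), and 0 were higher (background 0.166%). The median log2 fold change of the 17 was 0.04, against 0.01 over all genes.

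*Tspan11*, a family member of little-known function, was the one that fell. It was at 10.1, 5.33, 8.44 and 6.57 CPM in WT and at 3.80, 2.55, 1.61, 2.96 and 2.74 CPM in DKO, with no overlap between the groups. It fell by 1.46 on the log2 scale (SE 0.24, edgeR adjusted p = 0.0478), and DESeq2 also called it. The edgeR call was lost without WT_1, WT_3, WT_4, DKO_1, DKO_2, DKO_3 or DKO_5, with log2 fold changes of -1.62 to -1.30 over all 9 omissions. DKO_3 was lowest in *Tspan11* and highest in *Tspan6*.

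*Tspan3*, which encodes a widely expressed tetraspanin, was called higher by DESeq2 (adjusted p = 0.0174) and not by edgeR (adjusted p = 0.0887). It was at 27.5, 27.6, 21.8 and 28.2 CPM in WT and at 32.2, 38.8, 49.5, 33.0 and 36.8 CPM in DKO, with no overlap, and its log2 fold change was 0.54 ± 0.14 (SE). The 3 most abundant of the rest did not pass either test. *Tspan12* ranged from 1716 to 2620 CPM in WT and from 1452 to 1953 in DKO (log2 fold change -0.25 ± 0.17, SE). *Tspan31*, first found as an amplified gene of sarcomas, had a log2 fold change of -0.27 ± 0.14 (SE), and *Tspan14*, another escort of ADAM10, one of -0.06 ± 0.11 (SE). *Cd37* and *Cd53*, tetraspanins of leukocytes, had log2 fold changes of -0.50 ± 0.42 and -0.30 ± 0.32 (SE), past neither test. *Tspan10*, *Upk1a*, *Upk1b* and *Prph2* had too few reads to be tested.

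**Figure D4:**
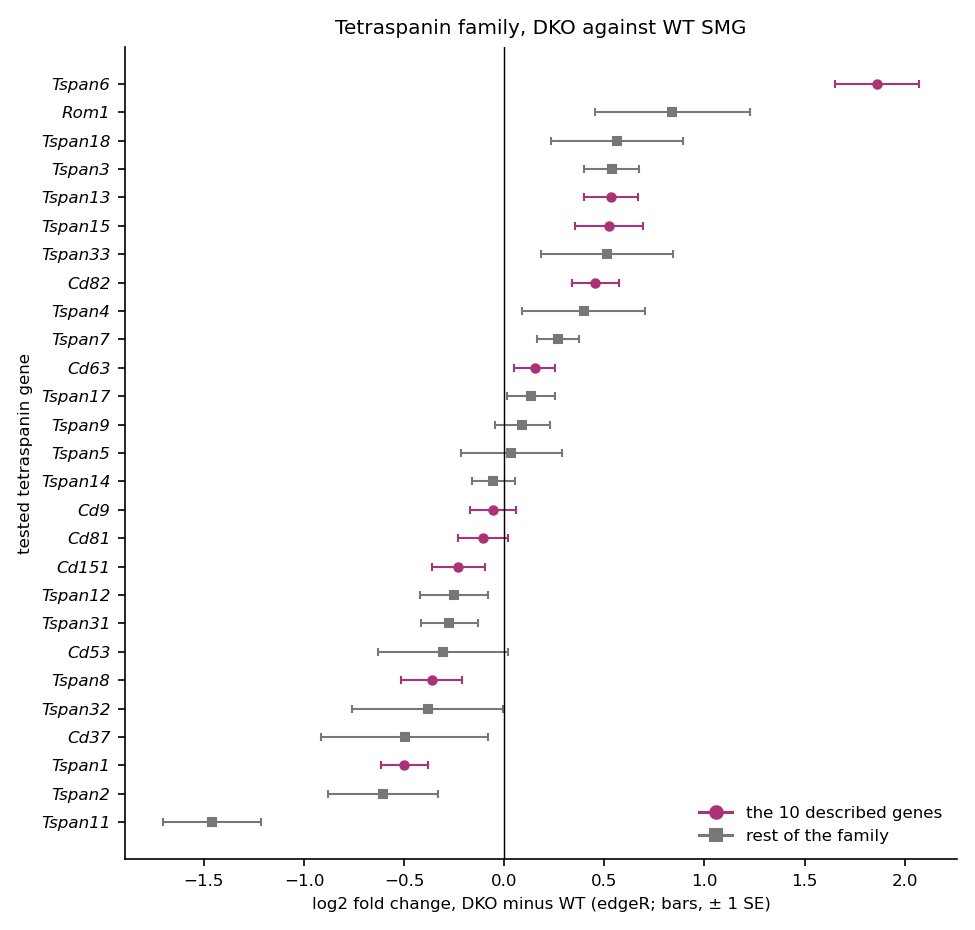
Fitted log2 fold change, DKO minus WT (x axis; bars, ± 1 SE from edgeR), of the 27 tested tetraspanins, with the 10 described genes as circles and the other 17 as squares. *Tspan6*, at 1.86, and *Tspan11*, at -1.46, lie at the ends, and all others lie between -0.61 and 0.84.

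Genes whose products bind tetraspanins or act with them on endosomes and released vesicles were tested as a fixed list of 35, of which 34 had enough reads. By edgeR 0 of the 34 were called (7 had an unadjusted p under 0.05, where 14.5% of all genes did), and the smallest adjusted p was 0.0709. DESeq2 called 3, with *Cd44* higher (background 1.77%) and *Cldn7* and *Tsg101* lower (background 2.68%). The groups did not overlap for 1 gene higher in DKO and 4 lower, where 5.95% of all genes did not overlap in either direction. The median log2 fold change was -0.03.

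Among the partners in the membrane, *Cldn7*, a claudin that joins EPCAM and tetraspanins in a complex, was at 101.4, 84.0, 98.4 and 89.8 CPM in WT and at 73.9, 57.4, 63.8, 75.3 and 70.6 CPM in DKO. Every DKO library was lower, with a log2 fold change of -0.45 ± 0.11 (SE), a DESeq2 adjusted p of 0.0065 and an edgeR adjusted p of 0.0709. *Epcam*, the epithelial adhesion gene, also did not overlap, at 166 to 182 CPM in WT and 136 to 162 in DKO, but its log2 fold change of -0.19 ± 0.09 (SE) passed neither test (edgeR adjusted p = 0.392). *Cd44*, a hyaluronan receptor, ranged from 31.2 to 50.7 CPM in WT and from 43.6 to 70.2 in DKO. DKO_4 alone lay inside the WT range, and the log2 fold change was 0.59 ± 0.18 (SE; DESeq2 adjusted p = 0.0491, edgeR adjusted p = 0.151).

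The 5 integrin chains of the list held no call by edgeR (background 0.629%) or DESeq2 (4.45%), with 1 at an unadjusted edgeR p under 0.05 (14.5%). *Itgb1*, the beta chain shared by most laminin and collagen receptors, had a log2 fold change of -0.03 ± 0.10 (SE). *Itgb4*, the beta chain of hemidesmosomes, had one of 0.41 ± 0.14 (SE, edgeR adjusted p = 0.186), and edgeR called it only when WT_2 was left out (0.55). The 3 immunoglobulin-family partners also held no call by either tool and 0 at an unadjusted p under 0.05. At the background shares, no call in lists this short says little about them. *Igsf3* and *Igsf8* had log2 fold changes of -0.23 ± 0.13 and -0.20 ± 0.14 (SE).

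Of the 18 genes of endosomes and vesicles, 17 were tested. *Tsg101*, of the ESCRT machinery that buds vesicles into endosomes, was at 75.7 to 103 CPM in WT and 64.7 to 74.7 in DKO. All 5 DKO libraries were below all 4 WT libraries, with a log2 fold change of -0.36 ± 0.10 (SE), a DESeq2 adjusted p of 0.0401 and an edgeR adjusted p of 0.129. The 2 most abundant had overlapping groups. *Sdcbp* encodes syntenin, the adaptor that links syndecans and CD63 to vesicle budding, and had a log2 fold change of -0.01 ± 0.13 (SE). *Rab27a*, a GTPase that docks secretory vesicles, also had one of -0.01 ± 0.15 (SE).

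Position on the chromosome was not used to choose *Tspan6*, so its neighbours were tested. The 5 nearest genes with enough reads on each side were *Chm*, *Dach2*, *Nap1l3*, *Cldn34c1* and *Diaph2*, from 20706 to 3425 kb away at lower coordinates, and *Srpx2*, *Sytl4*, *Cstf2*, *Trmt2b* and *Tmem35a*, within 397 kb at higher ones. By edgeR and by DESeq2 0 of the 10 were called, where 0.629% and 4.45% of all genes tested were, and 1 had an unadjusted edgeR p under 0.05, where 14.5% did. At these shares 0 calls among 10 genes says little about them. *Srpx2*, the closest, was at 1.22 to 1.79 CPM in WT and 0.580 to 1.31 in DKO. Its log2 fold change was -0.52 ± 0.26 (SE), with an interval of ± 2 SE from -1.04 to 0.00, and the two-sided exact permutation p was 0.0556, where the smallest this design allows is 0.00794.

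*Sytl4*, which encodes a RAB27 effector in granule release and lies next, averaged 4.32 ± 0.160 CPM across the WT and 4.71 ± 1.14 CPM across the DKO libraries (SD; log2 fold change 0.13, interval -0.25 to 0.50). *Trmt2b*, a mitochondrial RNA methyltransferase gene and the most abundant of the 10, ranged from 28.8 to 39.0 and from 28.5 to 33.7 CPM (log2 fold change -0.02, interval -0.24 to 0.20). *Dach2*, a transcription factor gene 20055 kb away, had the largest log2 fold change, 1.51 ± 0.48 (SE, edgeR adjusted p = 0.168), at a level of only 0.0447 to 0.305 CPM in WT and 0.277 to 1.01 in DKO. A noncoding gene on the same strand, *4930570D08Rik*, ends 269 bases upstream of the start of *Tspan6* and had 0 reads in all 9 libraries. The median log2 fold change over the 423 tested genes of the X chromosome was -0.02.

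**Figure D5:**
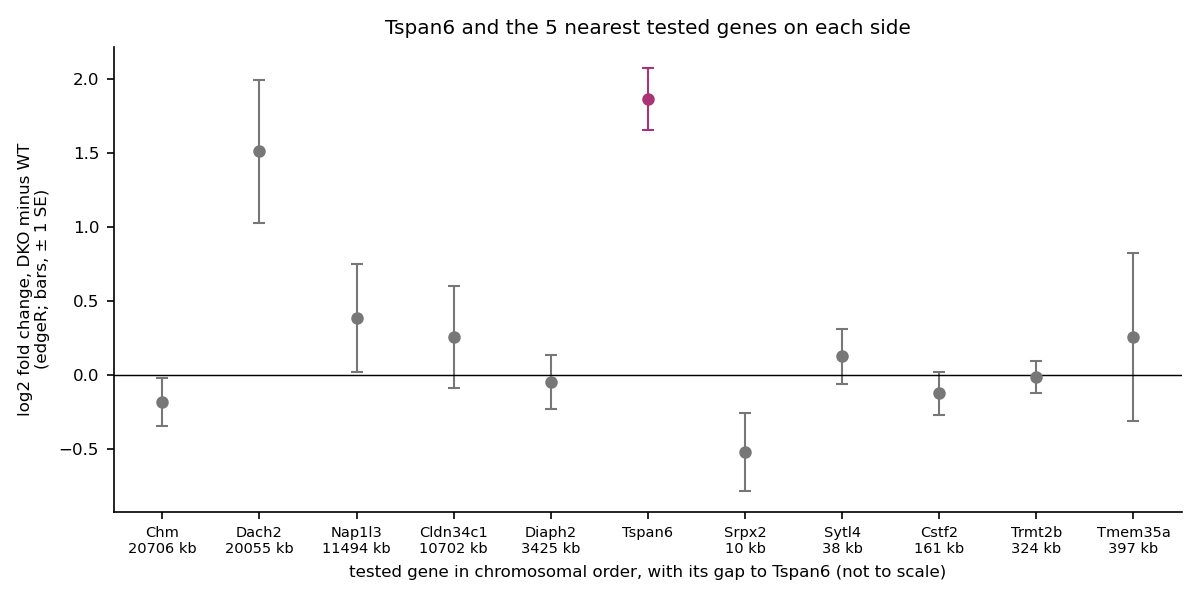
Fitted log2 fold change, DKO minus WT (y axis; bars, ± 1 SE from edgeR), of *Tspan6* and the 5 nearest tested genes on each side, in chromosomal order with the gap to *Tspan6* in kb under each name. *Tspan6* stands at 1.86 while the genes within 397 kb lie between -0.52 and 0.26, and *Dach2*, 20055 kb away, is at 1.51 with an SE of 0.48.

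The profile of *Tspan6* over the 9 libraries was compared with that of every tested gene with a gene model, as the root mean square difference of log2 (CPM + 0.5) after centring on the WT mean. The profiles share libraries, depth and cell makeup, and the measure favours genes with a like difference between genotypes, so the closest are named as a description. They were *Ceacam10*, a cell adhesion family gene (difference 0.324), *Cgref1*, which encodes an EF-hand growth regulator (0.340), *Gucy2c*, the receptor for guanylin (0.382), *Creb3l4*, an ER-bound transcription factor gene (0.440), and *Snph*, which encodes syntaphilin (0.473). *Cgref1* was at 5.90, 9.87, 7.42 and 7.17 CPM in WT and at 13.6, 18.8, 34.7, 16.1 and 25.3 CPM in DKO, with DKO_3 and DKO_5 highest as for *Tspan6*. *Ceacam10* was also highest in those 2 libraries, at 3.63 and 3.90 CPM, against 0.558 to 1.22 in WT. *Gucy2c* was instead high in DKO_3 and DKO_2. Of the other tetraspanins, the closest was *Tspan13*, which ranked 272 of 13814, followed by *Tspan3* at 274 and *Tspan15* at 334.

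*Tspan6* also varied more among libraries of a genotype than most of the set, mainly within DKO. In WT its SD of log2 CPM was 0.200, under those of *Tspan13* (0.262) and *Cd151* (0.266), and in DKO it was 0.420. Pooled within groups, the SD of *Tspan6* was 0.343, above that of 76.6% of tested genes, where the median gene had 0.241. *Cd9* and *Cd63* had 0.118 and 0.117, below which lay 6.87% and 6.47% of genes, and *Tspan1* had 0.168. The largest pooled SDs of the 10 were those of *Tspan6*, *Tspan15* (0.284) and *Tspan8* (0.256), and DKO_3 or DKO_5 stood at an end of the DKO range of each.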

How the data were processed

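Whole SMG RNA from 4 WT and 5 DKO adult male mice was made into unstranded Nextera XT libraries and sequenced on a HiSeq2500. The authors deposited raw read counts per gene (48733 rows, of which 24 were transgene or spike-in rows holding at most 0.000156% of a library's counts) and a filtered table of 17562 rows. The third deposited file holds TMM-normalized signal values in CPM units, and all 158058 of them came back as whole reads of the filtered table (tolerance 0.01). The submitters' processing notes list STAR 2.5.2a, DESeq2, edgeR and limma, and the builds GRCm38, mm10 and GRCh38, without roles. The counting tool and annotation are not given in the sources used here. The notes name DESeq2 and the study's methods its Wald test.

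Counts were fitted in R 4.3.3 with edgeR 4.0.16 (TMM factors, filterByExpr with a minimum count of 10 and minimum total of 15, legacy quasi-likelihood fit, genotype as the single term, Benjamini-Hochberg adjustment over 13842 genes, calls at an adjusted p under 0.05). DESeq2 1.42.0, limma 3.58.1 and other settings were run as 20 alternatives, of which 1 (the newer edgeR fit) was chosen after seeing the data. SEs are the log2 fold change over the square root of F. CPM in the text are the deposited normalized values. CPM per kb used merged exon lengths of GENCODE M21 (GRCm38), matched by Ensembl ID for 48349 rows. Upstream sequences were read from RefSeq promoters (GRCm38.p6). Exact permutation tests took every split of the 9 libraries. P-values measure the spread between glands that carry separate animal numbers in the labels.

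The 10 genes, the lists, the comparisons and the alternatives were chosen with earlier results of these data known. Named are the 10 genes, tetraspanins and partners that edgeR or DESeq2 called, the most abundant of each list (3 of the family, 2 of each partner list), 5 tested neighbours on each side and the 5 closest profiles. Others named (*Cd37*, *Cd53*, untested tetraspanins, marker genes) were chosen after their values were seen. On simulated counts with 200 of 13842 genes changed, edgeR found 147 (73.5%), with 15 of its 162 calls unchanged genes, and DESeq2 found 160 (80.0%), with 33 of 193.

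A share or level from a count carries counting error, and reads without molecular identifiers are not independent molecules.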

Additional observations from a re-analysis of the deposited data

Results flagged for a closer look

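Among 80 groups of 4 or 5 libraries checked (the named genes in each genotype), 6 held a library far from the rest of its own group, where chance gives about 1 in 20, or 4. Of the 10 tetraspanins, *Cd63* was at 167 CPM in WT_3 against 185 to 187 CPM in the other WT libraries, and *Cd82* was at 333 CPM in DKO_4 against 421 to 443 CPM in the other DKO libraries. Elsewhere in the family, *Tspan3* was at 21.8 CPM in WT_3 against 27.5 to 28.2. Among the neighbours of *Tspan6*, *Nap1l3* was at 0.818 CPM in DKO_1 against 0.289 to 0.414. Among the genes with a profile like that of *Tspan6*, *Gucy2c* was at 57.1 CPM in DKO_3 against 22.1 to 31.5, and *Creb3l4* was at 12.5 CPM in WT_2 against 7.17 to 7.998. No WT or DKO library was set apart in *Tspan6* itself.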

How the results depend on the processing

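The count of genes called over the whole table was 87 (23 higher) and depended on the setting. It was 5 (3 higher) with upper-quartile factors, 357 (21 higher) with total counts alone, 616 (245 higher) with DESeq2, 148 with limma-voom and sample weights, 347 with no filter on low counts, 13 (6 higher) on the deposited filtered table and 4 (3 higher) with limma-trend on log2 (CPM + 0.1). Leaving out 1 library gave 0 to 441, with 306 without WT_2, 441 without DKO_4 and at most 2 without any other library. With the replicate number as a block it was 0. The numbers are not stated to pair mice. Residuals of same-numbered libraries correlated at 0.15, 0.298, 0.0739 and 0.0136, against -0.222 to 0.0968 for differently numbered WT and DKO libraries. The values 0.298 and 0.15 were the highest of any WT and DKO pair. Whether libraries were paired cannot be told from these values, so the count with the block is given without a reading.

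*Tspan6* kept its direction in all 20 alternatives (log2 fold change 1.53 to 1.97). With the replicate block it was 1.74. Among tetraspanins outside the 10, the count of 1 became 0 with upper-quartile factors, the filtered table, limma-trend on log2 (CPM + 0.1) or the block, and 2 with DESeq2. Leaving out 1 library gave 0 to 2. Among partner and vesicle genes, the count of 0 became 2 with total counts alone and 3 with DESeq2, and leaving out 1 library gave 0 to 1. The neighbours of *Tspan6* stayed at 0 in all 20. The cause of these changes was not tested. With total counts alone the log2 fold changes of the other 9 members each shifted downward by about the shift of the median gene, for example to -0.79 for *Tspan1* and 0.15 for *Cd82*. Genes under 1 CPM, such as *Dach2* and *Nap1l3*, rest on few reads.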
